A study of Mus musculus with 45 samples.

Results

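The maternal mRNA decay factors described here are 10 genes, *Btg4*, *Pabpn1l*, *Zfp36l2*, *Cnot6l*, *Cnot7*, *Cnot8*, *Cnot1*, *Tut7*, *Ythdf2* and *Dcp1a*, picked by symbol out of the 55385 genes in the expression tables, and all 10 were found in each of the 18 RNA-seq libraries. The study asked what the transcription factor GABPA does in preimplantation embryos and in naive embryonic stem cells, and removed the protein with a degron. Every group, controls included, carried the genotype Gabpa dTAG/dTAG, in which both copies of *Gabpa* encode a tagged protein that the small molecule dTAG13 sends to the proteasome, while the control groups received the solvent DMSO. Late two-cell embryos were treated from 6 hpf (hours post fertilization) with 1 µM dTAG13 and collected at 30 hpf (3 DMSO and 3 dTAG13 libraries). Morulae were treated from the four-cell stage, at 42 hpf, with 1 µM (2 and 2 libraries). E4.5 ICM, the inner cell mass freed of its outer layer by immunosurgery and so a mixture of epiblast (EPI) and primitive endoderm (PrE), was treated from 84 to 100 hpf with 1 µM (2 and 2). 2iES cells, E14 mouse ES cells grown in 2i/LIF medium and derived from picked single clones, were treated with 0.5 µM for 24 h (2 and 2). The mice had been backcrossed to C57BL/6J. The paper calls the late two-cell, ICM and 2iES libraries biological replicates. The sources do not say whether replicate libraries came from separate matings or cultures, so p-values measure the spread between these libraries.

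A growing oocyte stores mRNA that carries the embryo through its first divisions, and most of that mRNA is destroyed around the time the embryonic genome is switched on. Removal usually begins with shortening of the poly(A) tail by the CCR4-NOT complex, in which CNOT1 is the scaffold, CNOT7 or CNOT8 is a nuclease of one family, and CNOT6 or CNOT6L is a nuclease of another. Adaptors bring the complex to its targets: BTG4 and the oocyte poly(A)-binding protein PABPN1L, the AU-rich element binding protein ZFP36L2, and the N6-methyladenosine reader YTHDF2. TUT7 and its relative TUT4 add uridines to shortened tails, and DCP1A is a cofactor of the decapping enzyme DCP2.

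Levels are given as TPM (read abundance divided by transcript length and scaled to the same total in every library, so that genes can be compared). Differences are log2 fold changes of expected counts, with their standard error and an adjusted p-value from edgeR's quasi-likelihood test, corrected over all genes tested by the Benjamini-Hochberg method. A gene rose or fell where the adjusted p-value was under 0.05, and it was called where the fold change was also at least 2 and the mean FPKM at least 1 in 1 of the groups. Libraries held between 9457933 and 27660132 expected counts, the shallowest being the morulae. The spread between replicates differed widely between stages: the biological coefficient of variation was 0.284 at the late two-cell stage, 0.213 in morulae, 0.159 in 2iES cells and 0.0237 in the E4.5 ICM, so small differences pass the test in the ICM that would not pass elsewhere. The stage labels fitted their marker genes, with 5 late two-cell markers such as *Zscan4d* summing to between 132 and 385 TPM in the late two-cell libraries and to at most 45.7 TPM elsewhere. *Gabpa* mRNA averaged 103 TPM with DMSO and 153 TPM with dTAG13 in late two-cell embryos, and since dTAG13 acts on the protein this level does not check the treatment.

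On GRCm38, the build of the tables, 3 members lie on chromosome 8, all on the reverse strand: *Cnot7* from 40492540 to 40515847, *Cnot1* from 95719451 to 95807464 and *Pabpn1l* from 122619471 to 122622739. The other members are spread over 7 chromosomes. The reverse strand carries *Ythdf2* on chromosome 4 from 132184912 to 132212303, *Cnot6l* on 5 from 96070333 to 96164171, *Tut7* on 13 from 59771561 to 59823147 and *Zfp36l2* on 17 from 84183931 to 84187947. The forward strand carries *Btg4* on chromosome 9 from 51060901 to 51119875, *Cnot8* on 11 from 58104153 to 58118594 and *Dcp1a* on 14 from 30479535 to 30527063. All are annotated as protein coding, and the values below are gene totals, summed over the annotated transcripts of each gene.

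GABPA belongs to the ETS family, whose members bind DNA around the letters GGAA, with flanking bases that GABPA prefers as in CCGGAAG. RefSeq promoter windows of 300 bases (250 before and 50 after an annotated start, assembly GRCm38.p6) were available for 7 members and were searched for CCGGAAG on both strands. *Tut7* held 3 matches in each of 2 overlapping windows, at 135, 122 and 47 bases before one start and the same letters at 98, 85 and 10 bases before the other, and 1 of them extended to the longer CCGGAAGTG, which contains the shorter motif. *Dcp1a* held 1 match, 92 bases before the start. *Cnot6l* held 1 match in 1 of its 3 windows, and the windows of *Btg4*, *Pabpn1l*, *Cnot8* and *Ythdf2* held none. CCGGAAG was held by 8.86% of all 32851 windows listed, 70 windows (0.213%) held it at least 3 times, and 2.03% held CCGGAAGTG. The promoter of *Tut7*, the member whose mRNA fell with dTAG13 in late two-cell embryos, is shown from chr13:59823081-59823360 on the reverse strand. That of *Dcp1a*, a member with a match in its only window, is from chr14:30479315-30479594 on the forward strand, and that of *Btg4*, the member with the sharpest stage pattern and no match, is from chr9:51115751-51116030 on the forward strand. The *Btg4* window lies inside the annotated gene, which begins at 51060901, and that first position had no window to search. Capitals mark CCGGAAG or its reverse complement, and the last 30 bases lie after the start (for *Tut7*, the start of the first window).
Tut7: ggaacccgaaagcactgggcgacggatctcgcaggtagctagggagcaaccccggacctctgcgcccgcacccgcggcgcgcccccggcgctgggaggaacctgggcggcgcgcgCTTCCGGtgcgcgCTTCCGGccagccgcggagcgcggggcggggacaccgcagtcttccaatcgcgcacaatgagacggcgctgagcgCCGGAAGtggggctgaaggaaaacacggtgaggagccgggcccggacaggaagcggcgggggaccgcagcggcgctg
Dcp1a: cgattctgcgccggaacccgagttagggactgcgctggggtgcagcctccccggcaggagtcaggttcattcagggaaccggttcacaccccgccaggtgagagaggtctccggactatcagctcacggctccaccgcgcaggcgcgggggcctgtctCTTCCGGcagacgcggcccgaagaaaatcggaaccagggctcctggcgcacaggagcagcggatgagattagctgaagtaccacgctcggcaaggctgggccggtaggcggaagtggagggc
Btg4: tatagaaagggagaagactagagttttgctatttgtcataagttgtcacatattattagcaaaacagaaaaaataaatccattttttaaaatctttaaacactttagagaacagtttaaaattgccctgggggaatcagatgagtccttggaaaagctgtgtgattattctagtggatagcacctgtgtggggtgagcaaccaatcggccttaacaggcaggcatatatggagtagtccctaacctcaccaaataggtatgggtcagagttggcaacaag

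At the late two-cell stage with DMSO the members spanned a wide range of levels, and *Cnot7*, which encodes a nuclease, and *Btg4*, which encodes an adaptor, were the most abundant. Mean TPM ± SD over 3 libraries was 374 ± 32.6 for *Cnot7* and 331 ± 28.9 for *Btg4*, whose libraries overlapped. They were followed by 240 ± 12.9 for *Cnot8* and 115 ± 25.1 for *Ythdf2*, neither overlapping its neighbours in the order. *Cnot1* followed with 50.5 ± 3.22, *Cnot6l* with 34.3 ± 2.99 and *Tut7* with 28.7 ± 5.53, and the highest *Tut7* library (32.4 TPM) lay just under the lowest of *Cnot6l* (32.5 TPM). The lowest were *Dcp1a* with 10.4 ± 2.03, *Zfp36l2* with 2.08 ± 0.378 and *Pabpn1l* with 1.56 ± 0.155, the last a gene whose product is known from the oocyte. All 10 genes together made up between 1135 and 1242 TPM in these libraries, against 202 and 249 TPM in control morulae, 299 and 291 TPM in control ICM and 229 and 216 TPM in control 2iES cells.

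**Figure D1:**
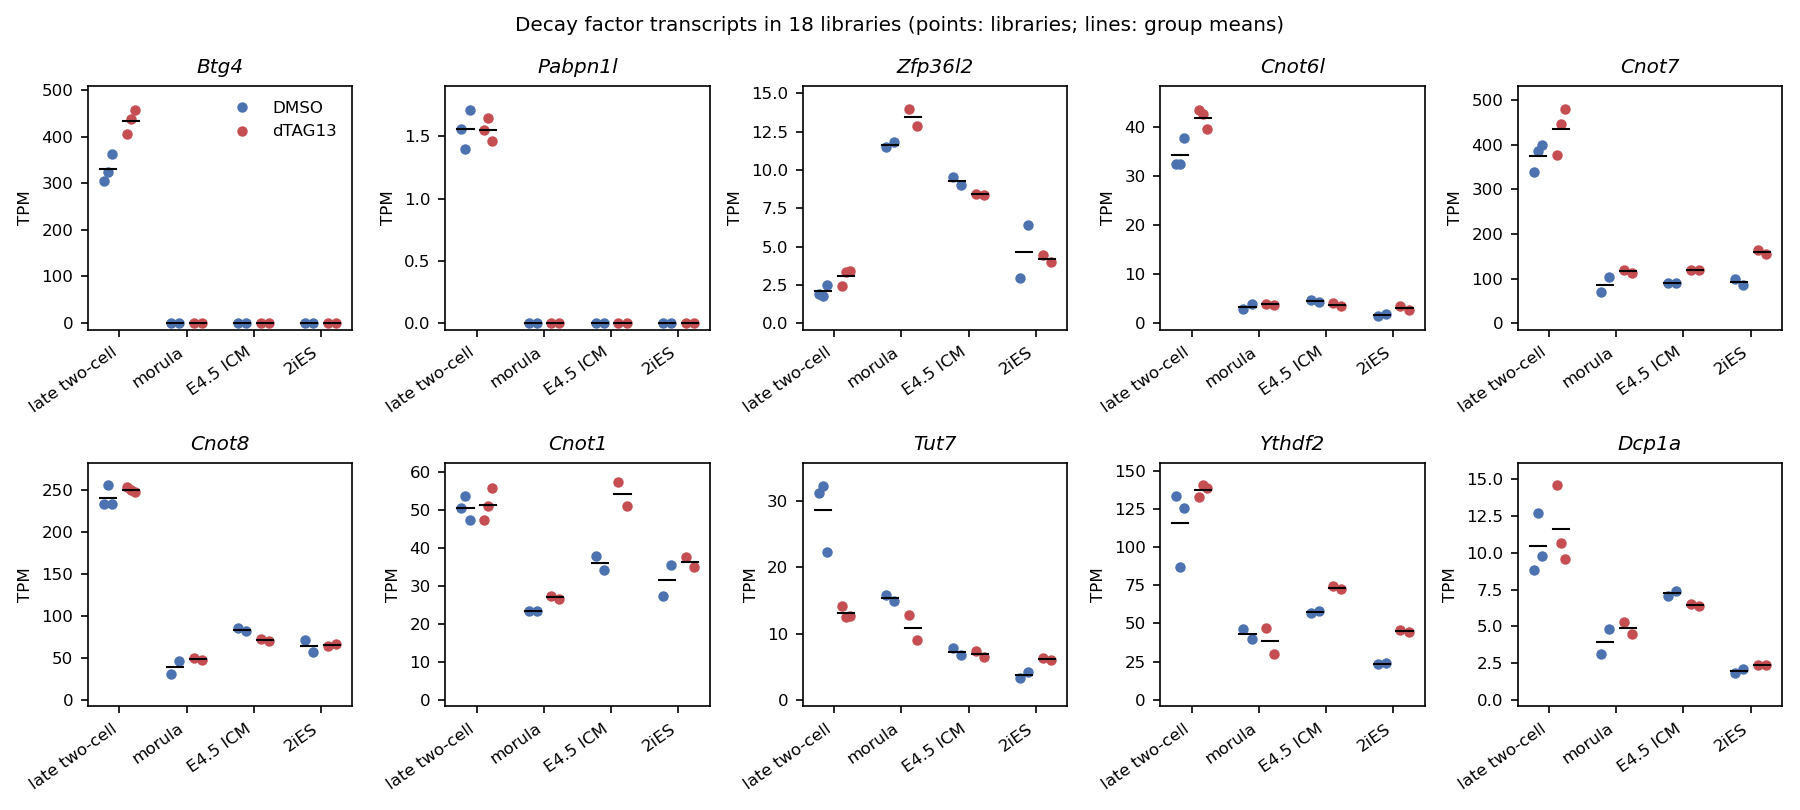
Level of each of the 10 genes in all 18 libraries, by stage and treatment, in TPM on linear axes that differ between genes. Points are libraries and lines are group means, and *Btg4* and *Pabpn1l* sit at or near 0 in every library after the late two-cell stage, while *Zfp36l2* is higher in morulae than in late two-cell embryos.

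Between the late two-cell stage and the morula the control libraries lost most of this mRNA. Of the 10 members 7 were called, 6 lower and 1 higher, where 50.3% of all 19830 genes tested were called, and the median log2 fold change of the members was −1.91 (−1.90 with the genes without morula counts at their bound) against −0.28 over all genes tested. In bulk embryo libraries fewer cells holding a transcript and less of it per cell cannot be told apart, and levels are relative to the RNA of each library.

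The adaptor genes showed the extremes in both directions. *Btg4* had 305, 325 and 362 TPM in the 3 control late two-cell libraries and 0 and 0.05 TPM in the 2 control morula libraries. That is 29908 counts over 3 libraries against 1 count over 2, a depth-adjusted ratio of 9469 with a 95% counting interval from 1699 to 374021. *Pabpn1l* had 1.56, 1.40 and 1.71 TPM (105 counts in all) and then 0 counts in both morula libraries and in all later ones, so it was at least 11.1-fold lower in morulae (against a floor of 3 counts over the group). Intervals and floors of this kind cover counting error only. *Zfp36l2*, which marks mRNAs with AU-rich elements for decay, went the other way, from 1.93, 1.80 and 2.51 TPM to 11.5 and 11.8 TPM (log2 fold change 2.80, SE 0.29, adjusted p = 3.32e-06). It was the only member to rise at this step, and its libraries did not overlap.

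Among the CCR4-NOT subunits the nuclease genes *Cnot6l*, *Cnot7* and *Cnot8* and the scaffold gene *Cnot1* fell. *Cnot6l* had 32.6, 32.5 and 37.8 TPM in late two-cell embryos and 2.80 and 3.87 TPM in morulae, a log2 fold change of −3.06 (SE 0.25, adjusted p = 4.14e-07). *Cnot7* fell from 338, 385 and 400 TPM to 69 and 104 TPM (−2.55, SE 0.17, adjusted p = 5.06e-08). *Cnot8* fell from 233, 255 and 233 TPM to 30.8 and 46.4 TPM (−2.31, SE 0.19, adjusted p = 3.24e-07). In each of the 3 genes the lowest late two-cell library lay above the highest morula library. *Cnot1*, the scaffold, fell from 50.5, 53.7 and 47.3 TPM to 23.3 and 23.2 TPM. On the count scale the change was −0.72 (SE 0.17, adjusted p = 0.00246), which did not reach a fold of 2. Its ratio of mean TPM was −1.12 on a log2 scale with 0.1 added.

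*Ythdf2*, the gene of the m6A reader, fell from 134, 86.9 and 126 TPM to 46.3 and 39.6 TPM (log2 fold change −1.50, SE 0.15, adjusted p = 2.31e-06). The decapping cofactor gene *Dcp1a* fell from 8.85, 12.7 and 9.77 TPM to 3.09 and 4.81 TPM (−0.80, SE 0.23, adjusted p = 0.00838), below a fold of 2 on the count scale, and it missed the threshold without control morula replicate 1 (−0.71, adjusted p = 0.0593). *Tut7* had 31.3, 32.4 and 22.3 TPM and then 15.8 and 15.0 TPM, groups that did not overlap in TPM, but its counts did not pass the test (−0.36, SE 0.20, adjusted p = 0.125). *Tut7* was the one member that did not pass between these stages.

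Fewer members were called in the later comparisons, with 8 tested in each. From control morula to control ICM 1 member was called, against 29.2% of all genes tested: *Tut7*, with 15.8 and 15.0 TPM in morulae and 7.77 and 6.76 TPM in the ICM, fell by a further 1.16 on the log2 scale (SE 0.22, adjusted p = 0.0011). It was no longer called without control morula replicate 1, where the value was −0.96. *Cnot8* had 30.8 and 46.4 TPM and then 85.1 and 81.1 TPM, a ratio of mean TPM of 1.10 on a log2 scale with 0.1 added. On the count scale it rose by 0.72 (SE 0.19, adjusted p = 0.0081) without reaching a fold of 2. That rise missed the threshold without control morula replicate 1 (0.44, adjusted p = 0.0568) and without control ICM replicate 1 (0.59, adjusted p = 0.0812). *Zfp36l2* went from 11.5 and 11.8 TPM to 9.54 and 9.02 TPM, which did not pass (−0.69, SE 0.31, adjusted p = 0.0938).

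Between control ICM and control 2iES cells 2 of the 8 members tested were called, near the 24.7% of all genes tested, both lower in 2iES cells. This comparison sets embryo tissue against a cell line, so stage cannot be told apart from source or library set. *Cnot6l* had 4.68 and 4.33 TPM in the ICM and 1.43 and 1.79 TPM in 2iES cells (log2 fold change −1.20, SE 0.26, adjusted p = 0.00273), and it was not called without 2iES DMSO replicate 1 (−0.81). *Dcp1a* had 7.06 and 7.40 TPM against 1.82 and 2.08 TPM (−1.20, SE 0.25, adjusted p = 0.0022). In both genes the groups did not overlap. *Tut7* was also lower in 2iES cells, with 7.77 and 6.76 TPM against 3.22 and 4.17 TPM (−0.94, SE 0.22, adjusted p = 0.0053). Without 2iES DMSO replicate 1 it did not pass, with a value of −0.70. *Cnot7* rose on the count scale (0.60, SE 0.16, adjusted p = 0.0111) while its TPM of 90.1 and 90.2 against 98.0 and 85.6 overlapped. With library totals in place of TMM scaling the *Cnot7* value was 0.13 and did not pass. Without either ICM control or without 2iES DMSO replicate 1 the adjusted p for *Cnot7* missed the threshold and reached at most 0.0753.

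Upon GABPA degradation at the late two-cell stage *Tut7*, the gene of the terminal uridylyltransferase, fell, and no other member passed the test. *Tut7* had 31.3, 32.4 and 22.3 TPM with DMSO and 14.1, 12.5 and 12.7 TPM with dTAG13. The highest treated library lay below the lowest control library, and the log2 fold change was −1.12 (SE 0.14, adjusted p = 0.000578), a fold change of 2.18. It kept its sign and passed the test under all 13 alternatives, with values between −1.22 and −1.01. Counted over the members, 1 of 10 passed, where 8.56% of the 17421 genes tested passed and 4.11% were called.

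Most adaptor and nuclease genes had positive values at this stage that did not pass. *Btg4* had 305, 325 and 362 TPM with DMSO and 405, 438 and 457 TPM with dTAG13, groups that did not overlap, with a log2 fold change of 0.32 (SE 0.09, adjusted p = 0.0604). It passed under 5 of the 13 alternatives, and the adjusted p ranged from 0.0168 to 0.211. *Cnot6l* had 32.6, 32.5 and 37.8 TPM against 43.6, 42.7 and 39.6 TPM, likewise without overlap in TPM (0.22, SE 0.10, adjusted p = 0.226). The remaining 7 members overlapped between the groups. How many of all genes were without overlap was not counted, so separation alone is not read as a change. The values of these 7 members were 0.49 for *Zfp36l2* (adjusted p = 0.267), 0.24 for *Cnot7* (0.246), 0.15 for both *Ythdf2* (0.482) and *Dcp1a* (0.731), −0.01 for *Cnot8* (0.971), −0.07 for *Pabpn1l* (0.951) and −0.10 for *Cnot1* (0.622). Markers of cumulus and granulosa cells, which surround the oocyte, summed over 6 genes to between 3.8 and 5.88 TPM with DMSO and between 7.42 and 12 TPM with dTAG13. *Inhba*, *Ptx3* and *Amh* were at 0 in the controls and *Amh* at 0 in the treated libraries. Only 1 of the 6 reached a mean of 1 TPM in each group. The same 6 genes summed to at least 7.92 TPM in 2iES cells with dTAG13. The part of such cells in the members' values was not tested.

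**Figure D2:**
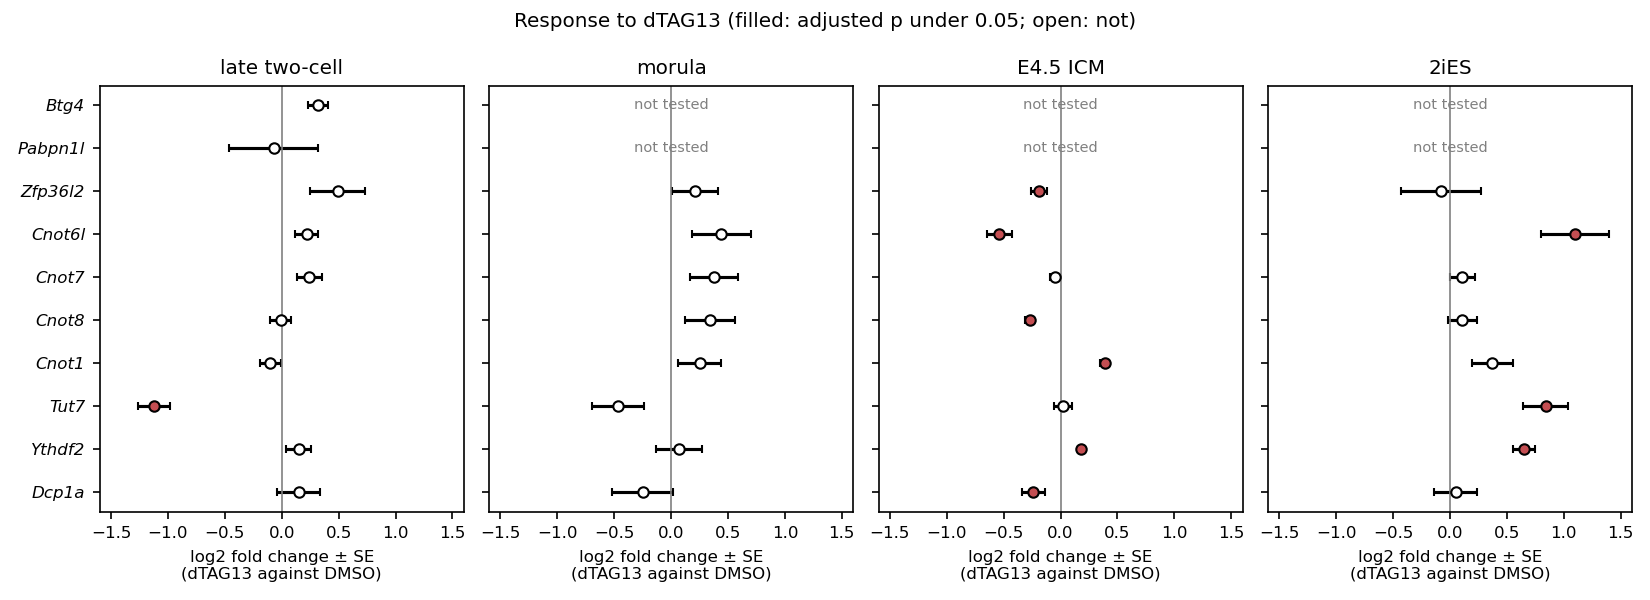
Log2 fold change with dTAG13 against DMSO for the members tested at each stage, as points with bars of 1 standard error, and filled where the adjusted p-value is under 0.05. *Tut7* lies at −1.12 at the late two-cell stage and at 0.84 in 2iES cells, and no morula point passes.

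In morulae no member passed, neither with edgeR (0 of 8 tested, and 0 of 8 at an unadjusted p under 0.05) nor with DESeq2 (0), where 0.366% of the 13667 genes tested passed with edgeR. *Tut7* had 15.8 and 15.0 TPM with DMSO and 12.8 and 8.96 TPM with dTAG13, groups that did not overlap, with a log2 fold change of −0.47 (SE 0.23, adjusted p = 0.383). Among the nuclease genes the values were 0.44 for *Cnot6l* (SE 0.26), 0.38 for *Cnot7* (SE 0.21) and 0.34 for *Cnot8* (SE 0.22), and *Cnot1* had 0.25 (SE 0.19). The remaining values were 0.21 for *Zfp36l2*, 0.07 for *Ythdf2* and −0.25 for *Dcp1a*. *Btg4* had 0 and 1 counts with DMSO and 2 and 4 counts with dTAG13 and was not tested, and *Pabpn1l* had 0 counts in all 4 libraries. Control replicate 1 was the lower of its pair for *Cnot7* (69 and 104 TPM) and *Cnot8* (30.8 and 46.4 TPM), by more than the treated libraries differed from each other.

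In the E4.5 ICM 6 of the 8 members tested passed, 4 lower and 2 higher, where 76.9% of the 15840 genes tested passed, and none of the 8 was called, where 25.3% of genes were. *Cnot6l* had 4.68 and 4.33 TPM with DMSO and 4.10 and 3.47 TPM with dTAG13, and fell by 0.54 on the log2 scale (SE 0.11, adjusted p = 3.73e-05). *Cnot8* fell from 85.1 and 81.1 TPM to 71.7 and 70.0 TPM (−0.27, SE 0.04, adjusted p = 3.03e-08). *Cnot1* rose from 37.9 and 34.1 TPM to 57.2 and 51.1 TPM (0.39, SE 0.04, adjusted p = 1.58e-11). In these 3 genes the groups did not overlap. The ratio of mean TPM for *Cnot6l* was smaller than its count change (−0.25 on a log2 scale with 0.1 added), its effective length differing by a log2 ratio of −0.24. *Ythdf2* rose from 56.8 and 58.1 TPM to 74.4 and 72.7 TPM (0.18, SE 0.03, adjusted p = 7.58e-06), with a TPM ratio of 0.36 on the same scale and a length ratio of −0.13. The other 2 that passed, *Zfp36l2* (−0.19, adjusted p = 0.0171) and *Dcp1a* (−0.24, adjusted p = 0.0237), lost significance under 7 of 11 alternatives each. *Cnot7* (−0.05, adjusted p = 0.253, although its TPM went from 90.1 and 90.2 to 118 and 120) and *Tut7* (0.02, SE 0.08, adjusted p = 0.871) did not pass, *Tut7* with 7.77 and 6.76 TPM against 7.29 and 6.47 TPM.

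None of the 6 ICM members passed when the spread was estimated over all 18 libraries in 1 fit (adjusted p from 0.0537 for *Cnot1* to 0.712 for *Zfp36l2*). Marker levels of the ICM libraries also differed between the treatments. The summed level of 7 trophectoderm markers, genes of the outer layer that immunosurgery removes, was between 66.8 and 72.6 TPM with DMSO and between 771 and 773 TPM with dTAG13, with none of the 7 at 0. The 7 EPI markers summed to between 794 and 813 TPM with DMSO and between 479 and 487 TPM with dTAG13, and the 5 PrE markers to between 221 and 230 TPM and between 295 and 297 TPM. The part of this difference in the members' values was not tested.

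In 2iES cells 3 of the 8 members tested passed, all higher, where 54.6% of the 15511 genes tested passed and 28.0% were called. *Cnot6l*, the one member called, had 1.43 and 1.79 TPM with DMSO and 3.55 and 2.7 TPM with dTAG13 (log2 fold change 1.10, SE 0.30, adjusted p = 0.0185). Without DMSO replicate 1 its value was 0.70. *Tut7* rose from 3.22 and 4.17 TPM to 6.34 and 6.04 TPM (0.84, SE 0.20, adjusted p = 0.0125), a rise that missed the threshold without dTAG13 replicate 1 (0.83, adjusted p = 0.0593). *Ythdf2* rose from 23.5 and 23.8 TPM to 45.6 and 44.7 TPM (0.65, SE 0.10, adjusted p = 0.0022). In all 3 genes both treated libraries lay above both control libraries. The other values were 0.37 for *Cnot1* (SE 0.18, adjusted p = 0.112), 0.11 for *Cnot7* (0.438) and for *Cnot8* (0.479), 0.05 for *Dcp1a* (0.848) and −0.08 for *Zfp36l2* (0.856). Under 12 alternatives *Cnot1* lay between 0.11 and 0.61 and passed in 4 of them. *Zfp36l2* had 2.92 and 6.42 TPM in the 2 control libraries, the first below and the second above the treated 4.42 and 3.99 TPM. Its value of −0.08 became −0.59 without DMSO replicate 1 and changed sign, to 0.59, without DMSO replicate 2. The EPI markers summed to between 527 and 637 TPM with DMSO and between 393 and 431 TPM with dTAG13, the 5 late two-cell markers to between 4.54 and 22.6 TPM and between 18.2 and 45.7 TPM, and the PrE markers to less than 1 TPM in all 4 libraries. The 6 cumulus and granulosa markers summed to between 0.46 and 0.64 TPM with DMSO and between 7.92 and 8.17 TPM with dTAG13. The part of these in the members' values was not tested.

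The effects at different stages were compared by interaction terms in 1 fit of all 18 libraries. The log2 fold change of *Tut7* with dTAG13 was 1.16 higher in the ICM than at the late two-cell stage (SE 0.26, adjusted p = 0.00378), and *Tut7* was the 1 of 8 members tested to pass there, where 20.3% of 21915 genes tested passed. Between 2iES cells and the ICM 2 of 8 passed, against 17.4% of genes: the effect on *Cnot6l* was 1.69 higher in 2iES cells (SE 0.30, adjusted p = 0.00104) and that on *Tut7* 0.87 higher (SE 0.28, adjusted p = 0.0434). Between the ICM and the morula 2 of 8 passed, against 16.1% of genes: the effect was −1.05 for *Cnot6l* (SE 0.30, adjusted p = 0.0246) and −0.67 for *Cnot8* (SE 0.21, adjusted p = 0.039), both lower in the ICM. Between the morula and the late two-cell stage none of 8 passed with edgeR or with DESeq2, against 6.47% of genes with edgeR, and 3 members (*Cnot8*, *Cnot1* and *Tut7*) had an unadjusted p under 0.05. The *Tut7* value there was 0.74 (SE 0.26, adjusted p = 0.101), so the effects on *Tut7* in morulae and at the late two-cell stage were not shown to differ. The *Tut7* difference between the ICM and the late two-cell stage and the *Cnot6l* difference between 2iES cells and the ICM passed under all 25 alternatives. The other 3 did not pass under 7 (*Cnot6l*), 19 (*Cnot8*) and 16 (*Tut7*) of 25, among them settings that left out 1 library.

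Most members have close relatives with a related activity, and *Btg4*, *Cnot6l*, *Tut7*, *Ythdf2* and *Dcp1a* each took the larger share of their family's mRNA in control late two-cell embryos, while *Zfp36l2* and *Pabpn1l* did not. *Tut7* made up 80.6% ± 5.03 (SD, n = 3) of the summed TPM of *Tut7* and *Tut4* in control late two-cell embryos and 56.1% ± 3.52 with dTAG13, 45.8% in control morulae, 29.8% in control ICM and 20.6% in control 2iES cells. At the late two-cell stage *Tut4* itself had a mean of 6.71 TPM with DMSO and 10.4 TPM with dTAG13, which did not pass on counts (0.29, SE 0.16, adjusted p = 0.352), and in 2iES cells it rose from 14.2 to 34.2 TPM (1.10, SE 0.14, adjusted p = 0.000992). Both uridylyltransferase genes were thus higher with dTAG13 in 2iES cells. *Cnot6l* made up 61.5% ± 2.83 of the sum with *Cnot6* in control late two-cell embryos and 18.6% in control morulae, 26.3% in the ICM and 24.6% in 2iES cells. *Cnot6*, the other nuclease of that family, had 21.5 TPM at the late two-cell stage and 14.7 TPM in morulae (−0.15, SE 0.23, adjusted p = 0.589) and moved against *Cnot6l* in the ICM, where it rose with dTAG13 (0.65, SE 0.06, adjusted p = 8.85e-13). In 2iES cells both were higher with dTAG13, *Cnot6* by 0.95 (SE 0.29, adjusted p = 0.0286).

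*Btg4* made up 76.3% ± 4.51 of the mRNA of *Btg1*, *Btg2*, *Btg3* and *Btg4* in control late two-cell embryos and 88.2% ± 2.23 with dTAG13, and 0.0479% in control morulae. *Btg1* fell with dTAG13 in late two-cell embryos, from a mean of 49.8 to 28.2 TPM (−0.90, SE 0.11, adjusted p = 0.00044), and rose in 2iES cells from 3.03 to 19.5 TPM (2.75, SE 0.30, adjusted p = 0.00048). *Btg2* rose in the ICM from 5.24 to 21.2 TPM (1.97, SE 0.07, adjusted p = 7.33e-24) and in 2iES cells from 9.46 to 60.3 TPM (2.75, SE 0.11, adjusted p = 2.23e-05). *Btg4* had 0 counts in every library of both. The share of *Zfp36l2* in its family of 3 (*Zfp36*, *Zfp36l1* and *Zfp36l2*) was 37.7% ± 5.74 at the control late two-cell stage, 78.7% in control morulae and 37.3% in control ICM, where *Zfp36l1* averaged 13.1 TPM. *Pabpn1l* was 0.0779% of the sum with *Pabpn1*, a nuclear poly(A)-binding protein whose mRNA averaged 1996 TPM in control late two-cell embryos and 2568 TPM with dTAG13 (0.29, SE 0.08, adjusted p = 0.044). *Ythdf2* held 80.9% of the *Ythdf* reader mRNA at the control late two-cell stage and between 66.0 and 70.0% on average in the other control groups, and *Dcp1a* held 95.8% of the sum with *Dcp1b* in late two-cell embryos and 74.6% in control 2iES cells.

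**Figure D3:**
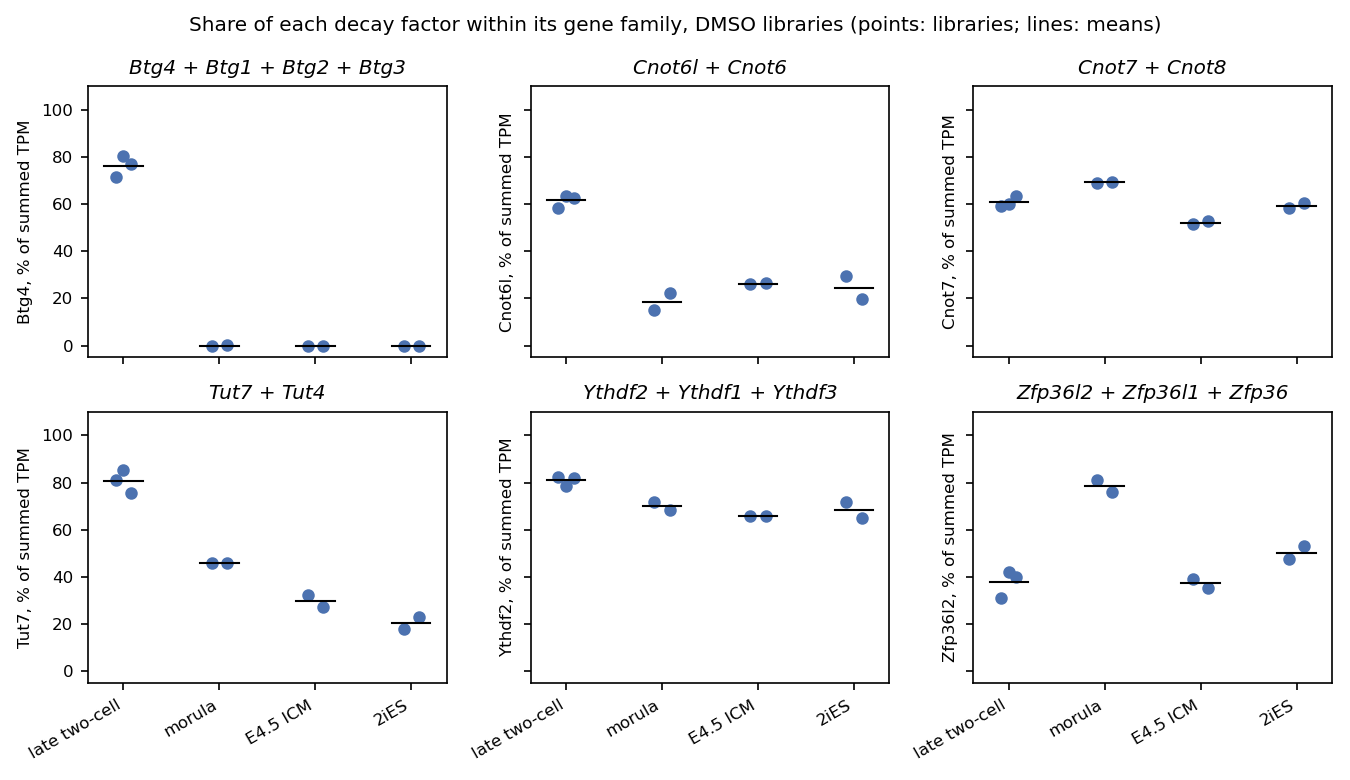
Share of each member in the summed TPM of its family, in percent, in the control libraries of the 4 stages, for 6 families, with points for libraries and lines for group means. The share of *Tut7* falls from 80.6% to 20.6% over the 4 control groups, and that of *Btg4* from 76.3% to 0.

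*Cnot7* behaved differently in TPM and in counts. In 2iES cells it had 98.0 and 85.6 TPM with DMSO and 163 and 154 TPM with dTAG13, without overlap, while its counts were 4362 and 3845 against 4077 and 3376 and did not pass the test. TPM and counts part at the effective length, RSEM's mean length of the gene's transcripts weighted by their estimated abundance. It was 1368 and 1336 bases with DMSO and 769 and 839 bases with dTAG13, a log2 ratio of −0.75 that only 0.479% of 5013 genes with at least 10 TPM matched or undercut. In the ICM the length was 1395 and 1383 bases against 1075 and 1035 bases (−0.40, matched or undercut by 1.49% of 6059 genes). Control late two-cell libraries had 1767, 1694 and 1593 bases and control morulae 1061 and 966 bases. The gene has 11 annotated transcripts, and which of them differed was not analysed here. *Ythdf2* had a smaller ratio of −0.35 in 2iES cells, where its TPM ratio (0.93 on a log2 scale with 0.1 added) exceeded its count change of 0.65.

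The wider decay machinery was read from 8 lists of genes outside the 10 members. They include the exosome, the nuclease complex that degrades RNA from its far end, and the LSm ring, which binds short tails ahead of decapping. With dTAG13 in late two-cell embryos 8.56% of all genes tested passed, and the counts of the lists are to be read against that share. Of 20 genes of uridylation and decay by the exosome 2 fell and none rose, *Exosc3* from a mean of 147 to 17 TPM (−3.25, SE 0.20, adjusted p = 6.98e-06) and *Exosc4* from 30 to 5.46 TPM (−2.53, SE 0.21, adjusted p = 3.16e-05). Of 18 genes tested of decapping and later decay 4 fell and 1 rose, with *Edc3*, an enhancer of decapping, at −1.59 (adjusted p = 0.0262), *Lsm5* at −1.49 (adjusted p = 0.00025) and *Lsm2* at −1.45 (adjusted p = 1.64e-05). Of 9 other deadenylases 2 fell, 1 of them called, the mitochondrial *Pde12* (−1.09, SE 0.17, adjusted p = 0.00243). Of 12 other CCR4-NOT subunits and BTG or TOB adaptors 1 fell, of 16 proteins that bind AU-rich elements or other sites near the mRNA end 1 fell, and of 16 m6A factors 1 fell. Of 15 poly(A)-binding proteins and polymerases 1 fell and 2 rose. Of 14 maternal transcripts that early embryos clear 1 rose and none fell, with a median log2 fold change of 0.10 against 0.02 over all genes tested.

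In morulae none of the 8 lists held a gene that passed with edgeR. In the ICM, where 76.9% of all genes tested passed, *Exosc3* fell from 104 to 2.36 TPM (−5.59, SE 0.10, adjusted p = 1.35e-33), *Exosc4* by 2.48 and *Exosc5* by 1.35 on the log2 scale, and 12 of 20 genes of that list fell and 5 rose. In 2iES cells, where 54.6% of all genes tested passed, *Exosc3* fell from 98.9 to 1.6 TPM (−6.13, SE 0.21, adjusted p = 1.88e-05), *Exosc4* by 3.76 and the uridylyltransferase gene *Tut1* by 2.31, and 11 of 20 fell and 4 rose. Of 20 genes of decapping and later decay 10 fell and 8 rose in the ICM (median −0.12 against 0.01 over all genes tested). In 2iES cells 5 fell and 4 rose (0.06 against 0.03). Of these *Lsm1* fell in both, by 1.75 in the ICM and by 1.66 in 2iES cells, and *Lsm2* and *Edc3* fell in 2iES cells by 1.76 and 2.15. Of the 12 other CCR4-NOT subunits and adaptors 7 rose and 2 fell in the ICM (median 0.34 against 0.01 over all genes tested) and 5 rose and 2 fell in 2iES cells (0.41 against 0.03), a number passing that was near the share of all genes. Those that rose included *Btg2*, *Btg3* (1.24) and *Tob2* (1.29) in the ICM and *Btg1*, *Btg2* and *Tob1* (1.61) in 2iES cells. Among the 9 other deadenylases 6 fell and 2 rose in the ICM, and 5 fell and 1 rose in 2iES cells. *Pnldc1*, a trimmer of piRNA ends, fell by 3.26 and by 2.96, *Toe1* fell by 1.43 in 2iES cells, and *Parn*, the poly(A)-specific ribonuclease, rose there from 5.62 to 41.9 TPM (2.99, SE 0.12, adjusted p = 2.23e-05). The maternal list had a median of −1.86 in the ICM (4 of 7 tested fell, 1 rose) and 0.65 in 2iES cells (1 of 5 tested fell, 2 rose). In 2iES cells the proteins binding AU-rich elements or other end sites had 0.57 (8 of 16 rose, 3 fell). The uridylation and exosome list had −0.57 there, and the other deadenylases −0.52.

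**Figure D4:**
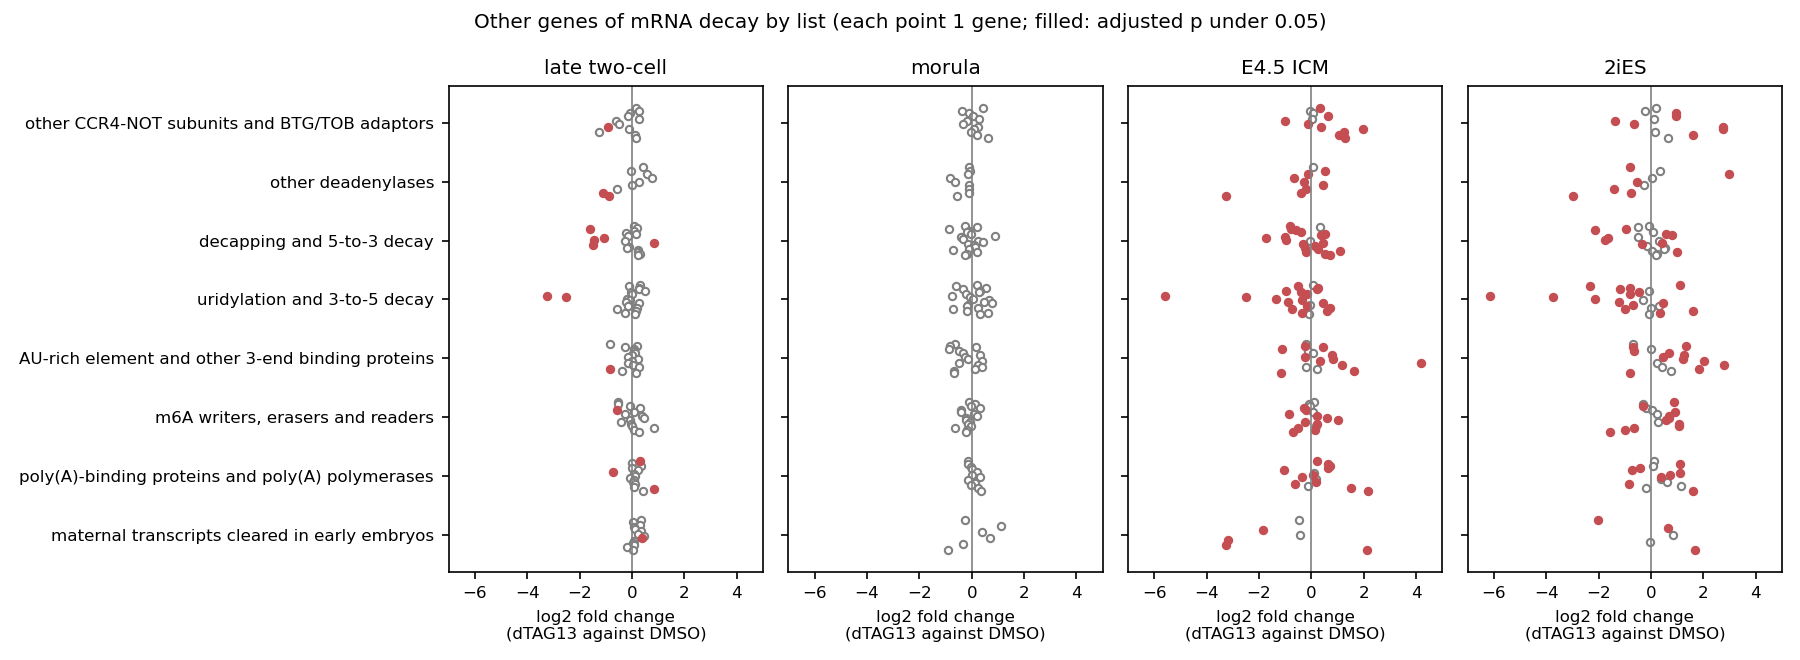
Log2 fold change with dTAG13 against DMSO for each gene tested of the 8 lists, 1 point a gene, in a panel for each stage, filled where the adjusted p-value is under 0.05. No point is filled in morulae, and the leftmost point is *Exosc3* in late two-cell embryos (−3.25) and in 2iES cells (−6.13).

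Among the other genes, those whose pattern over the 8 group means was nearest to each member were found by Pearson's correlation of log2(TPM + 1) over 9377 genes with at least 10 TPM in 1 group. The 8 points share libraries, depth and stage, so the values describe likeness only. For *Tut7* the nearest were *Purb* (r = 0.965), *Oxsr1* (0.956) and *Lemd3* (0.939), and no gene exceeded 0.99. For *Btg4* there were 396 genes above 0.99, led by *Gm10436*, *Gm42553* and *AA545190* (1.000 each). The nearest to *Cnot6l* was *Apol7b* (0.995), to *Cnot7* *Mef2a* (0.995), to *Cnot8* *Hmox2* (0.998) and to *Cnot1* *Zfp871* (0.991). *Ythdf2* was nearest to *Iws1* (0.989), *Dcp1a* to *Rhpn2* (0.989) and *Zfp36l2* to *Marcksl1* (0.984).

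Some reads of the members could belong to other genes. The libraries carry no strand, and *Tut7* shares 1299 exonic bases (8.82% of its exons) with the antisense gene *Etohd2*, whose own level lay between 0.35 and 2.15 TPM in all libraries. *Cnot7* shares 247 bases (4.24%) with *Zdhhc2* on the other strand. Of the 31-base words of *Ythdf2* 12.7% occur in another gene, mostly *Gm6823*, which was listed at 0 in all libraries, and of those of *Cnot8* 11.7% occur in *Gm18860*, which reached at most 2.39 TPM. *Cnot1* shares 4.65% of its words with *Gm6158*, which lay between 14.9 and 30.1 TPM, so its level is less certain than that of *Btg4*, *Pabpn1l* and *Cnot6l*, which share none.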

How the data were processed

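RNA-seq libraries were made from polyadenylated RNA with SMART-Seq v4, which keeps no strand, and Nextera XT. The authors used Trimmomatic 0.39 for trimming, STAR for alignment to GRCm38 and RSEM for quantification, and tested genes with DESeq2. The authors deposited an expected count, TPM and FPKM for each of 55385 genes in each of 18 libraries, without pooling. RSEM divides reads that fit several genes, so near-identical copies are uncertain. Gene names came from the GRCm38 annotation (55144 identifiers matched). Chromatin libraries of the series (CUT&RUN and ATAC-seq among them) were not used here.

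Expected counts were rounded and tested with edgeR 4.0.16 in R 4.3.3 (TMM scaling, quasi-likelihood test, a count minimum of 10 in a number of libraries equal to the smaller group, Benjamini-Hochberg over all genes tested). Treatments were compared within each stage, the 3 steps between control stages in 1 fit of 9 libraries, and differences of effects in 1 fit of 18. A member was tested between groups only where its mean count exceeded 3 in 1 of the groups. Alternatives were RLE, upper-quartile and total scaling, no count filter, DESeq2 1.42.0, limma 3.58.1 voom, a replicate block, other sets of libraries, another FPKM rule, TPM ratios with pseudocounts of 0.1 and 1, and leaving out each library. The fits were tested on simulated counts. Replicates of every group differed by more than sampling noise (the median chi-square over genes was 1.62 to 16.1 times that of sampling alone), and no duplicates were seen.

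Besides the members, close relatives were named whatever their values, and at most the 3 called genes with the largest change per list and comparison. The members and lists were chosen with earlier results of these data known. Genes with a like pattern were the 3 with the highest Pearson's r over group means. Promoter windows came from RefSeq.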

Additional observations from a re-analysis of the deposited data

Results flagged for a closer look

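For 3 members the effect of dTAG13 differed between stages in the interaction test of edgeR's quasi-likelihood fit of all 18 libraries. The log2 fold change of *Tut7* was 1.16 higher in the E4.5 ICM than at the late two-cell stage (adjusted p = 0.00378), where all 3 treated late two-cell libraries lay below the 3 controls and the ICM groups overlapped. Under 25 alternatives it lay between 0.99 and 1.18 and passed in all of them. *Tut7* also differed between 2iES cells and the ICM, by 0.87 (adjusted p = 0.0434), and this passed under 9 of 25 alternatives, with an adjusted p between 0.00901 and 0.185. *Cnot6l* differed by 1.69 between 2iES cells and the ICM (adjusted p = 0.00104), where it rose and fell respectively, and passed under all 25 with values between 1.31 and 2.20. The effect on *Cnot6l* was also lower in the ICM than in the morula, by a log2 value of −1.05 (adjusted p = 0.0246), and passed under 18 of 25. *Cnot8* differed between the ICM and the morula by −0.67 (adjusted p = 0.039), and passed under 6 of 25, with values between −0.99 and −0.41. Trophectoderm markers summed to at most 72.6 TPM in control ICM and at least 771 TPM in treated ICM, and their part in these differences was not tested.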

How the results depend on the processing

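Over 92 results of the members and 1764 values under alternatives, 64 no longer passed, 37 newly passed, and 73 of 120 TPM ratios moved by more than the replicate spread. In the fits 94 values of 25 results had the opposite sign, 0 of them for a result that passed at first, and 1 passed with that sign: *Zfp36l2* in 2iES cells, 0.59 without DMSO replicate 2 (−0.59 without replicate 1). The TPM ratio had the opposite sign in 10 results, which did not pass on counts, among them *Dcp1a* in treated morulae (0.30 against −0.25) and *Cnot7* in treated ICM (0.40 against −0.05). At the late two-cell stage 2 members passed (*Btg4* and *Tut7*) with upper-quartile or total scaling, without a count filter, with DESeq2 and with the replicate block. In the ICM 0 passed in the fit of 18 libraries, in which 6693 genes passed against 12174. For the differences between effects, ICM against late two-cell had 2 members with RLE, upper-quartile or total scaling, no filter or DESeq2, and 3 with voom. ICM against morula had 1 with RLE, upper quartile or no filter and 0 with totals. 2iES against ICM had 1 with RLE, upper quartile, totals, no filter or the replicate block, and 4 with voom. The causes were not tested.

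Leaving out 1 library gave 1 to 1 members at the late two-cell stage, 0 to 0 in morulae, 4 to 6 in the ICM and 2 to 6 in 2iES cells (6 without DMSO replicate 1, 5 without DMSO replicate 2). For control stages it gave 7 to 7 (morula), 0 to 2 (ICM; 0 without morula replicate 1) and 1 to 4 (2iES; 1 without 2iES replicate 1). For differences of effects it gave 0 to 1, 1 to 3, 0 to 3 and 1 to 2 in the order morula against late two-cell, ICM against late two-cell, ICM against morula and 2iES against ICM. Where it left a group with 1 library, that library was taken to vary like the rest.

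Same-numbered libraries were not shown to pair: the correlation of their deviations was 0.06, 0.12 and 0.12 at the late two-cell stage (each library nearest its own number), 0.03 in morulae, −0.04 in the ICM and −0.23 in 2iES cells. A crossed pairing in 2iES cells, added after seeing the data, gave 8917 genes and 4 members, against 8469 and 3. Genes passing in morulae were 50, but 128 with totals, 369 without a filter, 161 with DESeq2, 392 with the replicate block and 594 in the fit of 18 libraries, and 32 to 702 with 1 library left out. With voom 7191, 5592 and 8128 genes passed the differences ICM against late two-cell, ICM against morula and 2iES against ICM, against 4445, 3525 and 3803. With upper-quartile scaling the median over all genes (log2 scale) for dTAG13 in 2iES cells was 0.21 against 0.03, and at the late two-cell stage 0.14 against 0.02. With totals it was −0.33 for control 2iES against ICM, against 0.00, with 29.8% of genes passing higher against 51.3%. At the late two-cell stage 15.4% of genes passing were higher, 33.5% with upper quartile and 25.6% with totals. The share went from 44.0% to 31.2% in morulae with totals and, with upper quartile, from 48.6% to 58.6% in 2iES cells and from 53.9% to 43.2% for ICM against morula. Depth limits *Pabpn1l*, with at most 41 counts a library, and *Btg4* after the late two-cell stage.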

Other observations

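Between control late two-cell embryos and control morulae 50.3% of all genes tested were called, and of the lists 3 of 9 other deadenylases, 7 of 20 genes of uridylation and decay by the exosome, 5 of 12 other CCR4-NOT subunits and adaptors, 6 of 16 m6A factors and 13 of 20 decapping genes. The named genes below are those with the largest changes, given as log2 fold changes of edgeR's quasi-likelihood fit. All 14 tested transcripts of the maternal list were called lower, among them *Oosp1* and *Bmp15*, with a median of −5.63 (−5.30 with 3 genes at their bound) against −0.28 over all genes tested. That list was picked as transcripts that early embryos clear, so its fall was built into the choice and tests nothing. Among the other deadenylases *Angel2* fell from a mean of 108 to 3.1 TPM (−4.67, adjusted p = 8.37e-10) and *Pnldc1* from 91.7 to 7.63 TPM (−3.74, adjusted p = 9.18e-09), while *Toe1* rose from 6.35 to 16.7 TPM (1.77, adjusted p = 5.41e-06). The adaptor *Tob2* fell from 15.2 to 0.55 TPM (−4.33, adjusted p = 5.74e-08), and *Cnot11*, a CCR4-NOT subunit, rose from 6.6 to 30 TPM (2.05, adjusted p = 7.78e-06). In the LSm ring *Lsm4* rose from 45.7 to 278 TPM (3.10, adjusted p = 2.72e-09) and *Lsm5* from 134 to 859 TPM (3.00, adjusted p = 3.37e-09). Of 16 proteins that bind AU-rich elements or other sites near the mRNA end 5 were called lower and 4 higher. Among them *Elavl2*, an RNA-binding protein of the ELAV family, fell from 19.5 to 0.925 TPM (−4.62, adjusted p = 3.85e-08). Of 15 poly(A)-binding proteins and polymerases 5 were called lower and 2 higher.

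Some genes of the maternal list had higher levels again later. Of 11 tested from control morula to control ICM 4 were called higher and 1 lower, where 29.2% of all genes tested were called. *Dazl*, an RNA-binding protein of germ cells, rose at that step from 0.77 to 19.9 TPM (4.10, adjusted p = 1.64e-07) and *Plat*, tissue plasminogen activator, from 1.07 to 11 TPM (3.07, adjusted p = 9.59e-06). *Tent5a*, a poly(A) polymerase gene, rose from 0.055 to 5.88 TPM at that step (6.32, adjusted p = 2.02e-07) and was at 0.055 TPM in control 2iES cells. Its list of poly(A)-binding proteins and polymerases had 5 of 15 tested called lower and 2 higher at that step.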
